A study of Mus musculus with 10 samples.

Results

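AMPA and kainate receptors are the ion channels through which glutamate gives fast excitation, and their 9 subunit genes (Gria1 to Gria4 for AMPA, Grik1 to Grik5 for kainate) are described here in motion-sensing retinal ganglion cells of young mice. The members were chosen by gene symbol, and the 9 were found among 23258 gene symbols. All 9 passed the filter on low values (at least 1 TPM in at least 5 libraries), which 11744 genes passed. The knockout group is 5 libraries of Satb1-/- Hb9-GFP cells and the wild-type group is 5 libraries of Hb9-GFP cells without the Satb1 mutation. All came from C57BL/6 mice at postnatal day 6, with no treatment named. Each library was made from about 1000 sorted cells, and the libraries of a genotype came from different litters. Both groups carry the Hb9-GFP reporter, in which regulatory DNA of the motor neuron gene Mnx1 (Hb9) drives green fluorescent protein and labels ON-OFF direction-selective ganglion cells. The Satb1 protein binds AT-rich DNA and organizes chromatin. Which part of Satb1 is missing, in which cells, and whether animals were pooled is not stated in the labels. The comparison asks how transcript levels in these neurons depend on Satb1.

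An AMPA or kainate receptor is a tetramer of homologous subunits around a pore. In the retina, bipolar cells release glutamate onto ganglion cells, whose dendrites carry AMPA receptors along with NMDA receptors, while kainate subunits are also known from OFF bipolar cells. The makeup of an AMPA receptor sets its calcium permeability: the Gria2 transcript is edited at a glutamine codon of the pore loop (the Q/R site), and receptors with the edited subunit pass little calcium. Grik1, Grik2 and Grik3 can form kainate channels alone, whereas Grik4 and Grik5 bind kainate with high affinity and need one of the other 3 as a partner.

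The 28 bases around the Q/R codon are shown because editing at this codon in some of the subunits sets how the receptor conducts. They come from GENCODE M21 transcripts on GRCm38 (mm10), are written 5′ to 3′ on the coding strand, and carry the codon in capitals. Each lies within 1 coding exon. The stretches are chr11:57243073-57243100 (plus strand, exon 11 of Gria1), chr3:80706907-80706934 (minus, exon 11 of Gria2), chrX:41610244-41610271 (plus, exon 11 of Gria3) and chr9:4464133-4464160 (minus, exon 12 of Gria4). For the kainate genes they are chr16:87940538-87940565 (minus, exon 12 of Grik1), chr10:49244325-49244352 (minus, exon 12 of Grik2), chr4:125691186-125691213 (plus, exon 12 of Grik3), chr9:42547619-42547646 (minus, exon 14 of Grik4) and chr7:25022493-25022520 (minus, exon 15 of Grik5).
Gria1: ttctcgctgggggccttcatgCAGcaag
Gria2: ttttccttgggtgcctttatgCAGcaag
Gria3: ttttccttgggtgcttttatgCAGcaag
Gria4: ttttccctgggtgcctttatgCAAcaag
Grik1: tttggcgttggagctctcatgCAGcaag
Grik2: tttggagttggagctctcatgCAGcaag
Grik3: tttggaatgggctccctgatgCAGcaag
Grik4: tttccggttggaggcttcatgCAGcaag
Grik5: ttccccgtgggtggcttcatgCAGcagg
The genome encodes glutamine here in all 9 genes, with the codon CAG in each but Gria4, which has CAA. Gria3 matched Gria2 at 27 of the 28 bases, Gria4 at 26 and Gria1 at 23. Grik1 matched Grik2 at 27 bases, Grik3 and Grik4 at 22 and Grik5 at 18. The 5 kainate genes matched Gria2 at 19 to 22 bases, fewer than the other AMPA genes did. Grik5 matched Gria2 at 22 bases, more than the 18 at which it matched Grik2. The transcripts of Gria2, Grik1 and Grik2 are the ones known to be edited at this codon. The deposited values are gene levels, so editing and splice forms were not measured.

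The values are TPM (transcripts in a total of 1000000), scaled for transcript length and library total, so that levels of different genes can be compared within a library. Depth is unknown, since TPM keeps none. Differences are knockout minus wild-type on the log2(TPM + 1) scale, which understates the change of low genes. Between 10073 and 12230 genes in knockout and between 11119 and 12555 in wild-type libraries had at least 1 TPM. Knockout 4, knockout 5 and wild-type 5 stood apart from the other 7 libraries on the first principal component, which held 32.9% of the variance. Transcripts of ribosomal proteins made up 11.5% to 12.8% of all TPM in those 3 libraries and 3.72% to 7.89% in the other 7. In knockout 3, the neurofilament gene Nefl alone took 9.45% of the TPM. Satb1 was at 24.1 to 170 TPM in knockout and 38.6 to 414 TPM in wild-type, so its levels overlapped (limma, Benjamini-Hochberg adjusted p = 0.992). This is a level of the whole gene, and where it lies against the deleted part is not stated.

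The cells had the transcripts of ganglion cells. All 12 ganglion cell markers passed the filter, and their summed level was 13004 to 101390 TPM in knockout and 14715 to 30794 TPM in wild-type. Nefl alone gave 94380 TPM of that sum in knockout 3 and 6422 to 19150 TPM in the other 9 libraries. The 5 direction-selective markers summed to 116 to 305 TPM in knockout and 534 to 1101 TPM in wild-type. Among them only Cartpt had genotypes that did not overlap, at 1.63 to 47.3 TPM in knockout and 56.8 to 843 TPM in wild-type. Cdh6 was at 38.7 to 179 TPM in knockout and 75.2 to 309 TPM in wild-type. Fstl4 was at 26.0 to 117 TPM in knockout and 36.8 to 271 TPM in wild-type. Bipolar cell markers, whose cells also use these receptors, summed to 12.1 to 105 TPM in knockout and 37.2 to 141 TPM in wild-type. Of those 9 markers 7 were listed at 0 in at least 1 library, and Grm6, the receptor that defines ON bipolar cells, was at 0.0749 TPM in knockout 2 and listed at 0 in the other 9 libraries. Otx2, also among the 7, reached 120 TPM in wild-type 4 and 115 TPM in wild-type 5. It was at 49.95 to 58.6 TPM in knockout 1 to 3 and at 0 to 17.6 TPM in the remaining libraries. The 11 rod markers reached higher sums, at 263, 68.6, 507, 381 and 1.36 TPM in knockout 1 to 5. In wild-type 1 to 5 the rod sums were 3.89, 15.0, 15.6, 332 and 534 TPM, so wild-type 4 and 5 were high in both Otx2 and rod markers. Which cells the Otx2 transcripts came from was not tested. For amacrine cells, 5 of 10 markers had 1 or more libraries at 0, including Chat and Slc18a3 of the cholinergic type. The part of other cell types in the levels below was not tested, and in sorted pools fewer cells of a type and less RNA per cell cannot be told apart.

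Gria2 and Gria4 were the leading AMPA transcripts and Grik5 the leading kainate transcript in these ganglion cells. Over the 10 libraries, Gria2 averaged 130 TPM (129.7), Gria4 80.6 TPM, Gria3 29.9 TPM and Gria1 27.1 TPM. Gria4 was above Gria3 in all 10 libraries. Gria2 was above Gria4 in 5 of 10 libraries and Gria3 above Gria1 in 5 of 10, so these neighbours in the order did not differ beyond their spread. Among kainate genes, Grik5 averaged 105 TPM, Grik3 19.3 TPM, Grik1 14.4 TPM, Grik2 9.33 TPM and Grik4 7.75 TPM. Grik5 exceeded Grik3 in all 10 libraries, whereas each lower neighbour was passed by the next in at least 3 of the 10. By mean log2 level, Grik5 stood above 89.2% and Gria2 above 88.7% of the tested genes, while Grik2 stood above 29.4% and Grik4 above 18.8%.

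**Figure D1:**
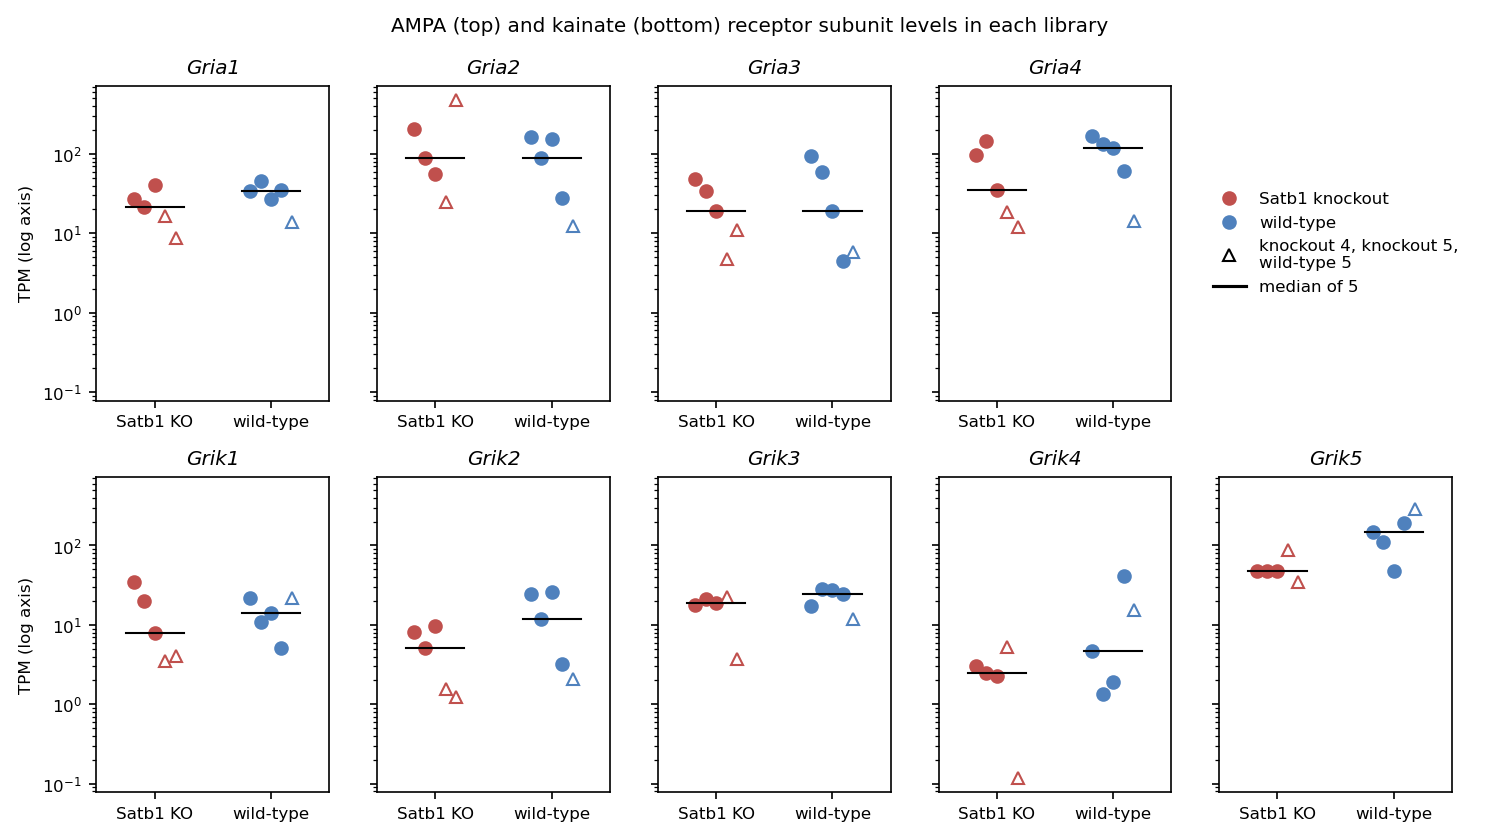
Level of each AMPA (top row) and kainate (bottom row) subunit in TPM on a log axis, with 5 Satb1 knockout libraries left of 5 wild-type libraries and a bar at the median of each group. Open triangles are knockout 4, knockout 5 and wild-type 5, and Grik5 is the subunit whose knockout libraries sit lowest against wild-type, at 34.8 to 88.2 TPM against 47.9 to 284 TPM.

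Grik5 (KA2), the high-affinity kainate subunit (chromosome 7, 25009849 to 25072346, minus strand), had the smallest p of the 9 genes. It was at 47.1, 47.1, 47.2, 88.2 and 34.8 TPM in knockout 1 to 5, and at 148, 112, 47.9, 194 and 284 TPM in wild-type 1 to 5. Knockout 1, 2, 3 and 5 were below every wild-type library, and knockout 4 was above only wild-type 3. The means were 52.9 ± 20.4 TPM in knockout and 157 ± 88.7 TPM in wild-type (SD, n = 5 each). The log2 difference was -1.40 (SE 0.60, 95% interval -2.64 to -0.15). The two-sided exact permutation p was 0.0159 over all divisions of the libraries, the smallest possible being 0.00794. Adjusted over the 11744 genes tested, its limma p was 0.992 (Benjamini-Hochberg), so Grik5 did not pass.

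Other genes with values as far apart give the background. Limma called 0 of 11744 genes (0%) at an adjusted p under 0.05, and 389 (3.31%) at an unadjusted p under 0.05. Of the latter, 302 (2.57%) were lower in knockout, and Grik5, at an unadjusted limma p of 0.0296, was the 1 of 9 subunits among them. The exact permutation test gave 410 genes (3.49%) at an unadjusted p under 0.05, Grik5 again being the 1 of 9. At least 4 of 5 knockout libraries were below every wild-type library for 292 genes (2.49%). The genotypes did not overlap at all for 59 genes (0.502%) and for 0 of the 9 subunits. Without wild-type 5, the library with the highest Grik5 level, the difference was -1.13 (SE 0.59), and without knockout 4, knockout 5 and wild-type 5 it was -1.22 (SE 0.57). After median centring of the libraries it was -1.02 (SE 0.62). The unadjusted limma p of Grik5 in these fits was 0.072, 0.051 and 0.123 in that order, so none was under 0.05.

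Grik4 (KA1), the other high-affinity subunit (chromosome 9, 42518135 to 42944493, minus strand), was low in most libraries. Its level was 3.07, 2.45, 2.25, 5.31 and 0.118 TPM in knockout 1 to 5, against 4.71, 1.37, 1.91, 41.0 and 15.3 TPM in wild-type 1 to 5. Wild-type 4 and 5 were above all knockout libraries and wild-type 1 to 3 lay among them. The difference was -1.28 (SE 0.85, 95% interval -3.04 to 0.49; two-sided exact permutation p = 0.222), and it was -0.67 without wild-type 4. Wild-type 4 also held the highest summed levels of horizontal cell markers, 170 TPM (169.6), against 12.96 to 67.0 TPM in the other 9 libraries. In wild-type 4, Onecut1 alone gave 161 TPM of that sum. Onecut1 is also made by ganglion cells. Calb1 was at 8.16 TPM in wild-type 4, below wild-type 1 to 3 at 12.2 to 16.8 TPM, and Lhx1 was listed at 0 in all 10 libraries. The part of horizontal cells was not tested.

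The 3 subunits that form kainate channels alone had overlapping levels in the genotypes. Grik2 (GluK2; chromosome 10, 49094833 to 49788766, minus strand) was at 8.14, 5.12, 9.73, 1.55 and 1.24 TPM in knockout 1 to 5, against 24.4, 11.9, 25.9, 3.24 and 2.11 TPM in wild-type 1 to 5. All 5 knockout libraries were below the wild-type median of 11.9 TPM, with wild-type 4 and 5 among the knockout values. The difference was -1.02 (SE 0.83, 95% interval -2.75 to 0.72; two-sided exact permutation p = 0.230). Grik3 (GluK3; chromosome 4, 125490700 to 125714173, plus strand) had the smallest fold range of the kainate subunits, 7.67-fold, at 18.0, 21.3, 18.9, 22.2 and 3.68 TPM in knockout 1 to 5 and 17.1, 28.2, 27.4, 24.4 and 11.7 TPM in wild-type 1 to 5. Knockout 5 was the lowest of the 10, and the difference was -0.48 (SE 0.70, 95% interval -1.93 to 0.97) with it and -0.05 without it. Grik1 (GluK1; chromosome 16, 87895900 to 88290265, minus strand) was at 34.9, 20.1, 7.87, 3.54 and 4.04 TPM in knockout 1 to 5 and 21.6, 10.8, 14.0, 5.13 and 22.1 TPM in wild-type 1 to 5. The difference of -0.37 (SE 0.78, 95% interval -2.01 to 1.26) took the other sign, 0.60 (SE 0.79), without knockout 4, knockout 5 and wild-type 5.

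Gria2 (GluA2; chromosome 3, 80681450 to 80802835, minus strand), the subunit that keeps calcium out, had the widest range of the AMPA genes. Its level was 207, 89.0, 56.5, 24.9 and 473 TPM in knockout 1 to 5, against 161, 90.2, 154, 27.8 and 12.3 TPM in wild-type 1 to 5. The highest and the lowest of the 10 values were in knockout 5 and wild-type 5, 38.6-fold apart, and both are among the 3 libraries that stood apart. The difference was 0.78 (SE 0.83, 95% interval -0.94 to 2.51; two-sided exact permutation p = 0.468). It was 0.24 (SE 0.81) without knockout 5, 0.23 (SE 0.79) without wild-type 5 and 0.19 (SE 0.69) without the 3 libraries. Knockout 5 also had the highest sum of the 8 Muller glia markers, 5763 TPM against 202 to 1209 TPM in the other 9 libraries. Apoe, which macrophages also make, gave 5651 TPM of it, while Rlbp1, Slc1a3 and Sox9 were listed at 0 there and Clu and Dkk3 were at their lowest of the 10 libraries. The 10 microglia markers summed to 2746 TPM in knockout 5 against 4.14 to 2247 TPM, with Tyrobp at 1065 TPM but Aif1 at 0.839 TPM and P2ry12 at 1.15 TPM. The part of these cells was not tested.

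Gria4 (GluA4; chromosome 9, 4417896 to 4796234, minus strand), a subunit of fast-gating receptors, was at 96.7, 147, 35.6, 18.6 and 12.2 TPM in knockout 1 to 5, against 166, 135, 118, 61.8 and 14.1 TPM in wild-type 1 to 5. The wild-type range took in all knockout libraries but knockout 5, the lowest of the 10. The means were 61.9 ± 57.9 TPM in knockout and 99.2 ± 60.8 TPM in wild-type (SD, n = 5 each), a difference of -0.85 (SE 0.79, 95% interval -2.49 to 0.80; two-sided exact permutation p = 0.365). Gria1 (GluA1; chromosome 11, 57011387 to 57330244, plus strand), which is known for activity-dependent delivery to synapses, had the smallest fold range of the 9 genes, 5.27-fold over the 10 libraries. Its level was 27.4, 21.7, 40.2, 16.6 and 8.72 TPM in knockout 1 to 5 and 34.4, 46.0, 27.4, 34.7 and 13.7 TPM in wild-type 1 to 5. The genotypes overlapped, with a difference of -0.49 (SE 0.66, 95% interval -1.86 to 0.88).

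Gria3 (GluA3; chromosome X, 41400854 to 41678601, plus strand) spread widely within each genotype. It was at 48.3, 33.9, 19.1, 4.79 and 11.1 TPM in knockout 1 to 5, against 94.2, 58.6, 19.1, 4.45 and 5.82 TPM in wild-type 1 to 5. The wild-type range took in every knockout library. The difference was -0.16 (SE 0.88, 95% interval -1.99 to 1.67), and it was 0.21 after median centring and 0.21 without the 3 libraries apart.

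**Figure D2:**
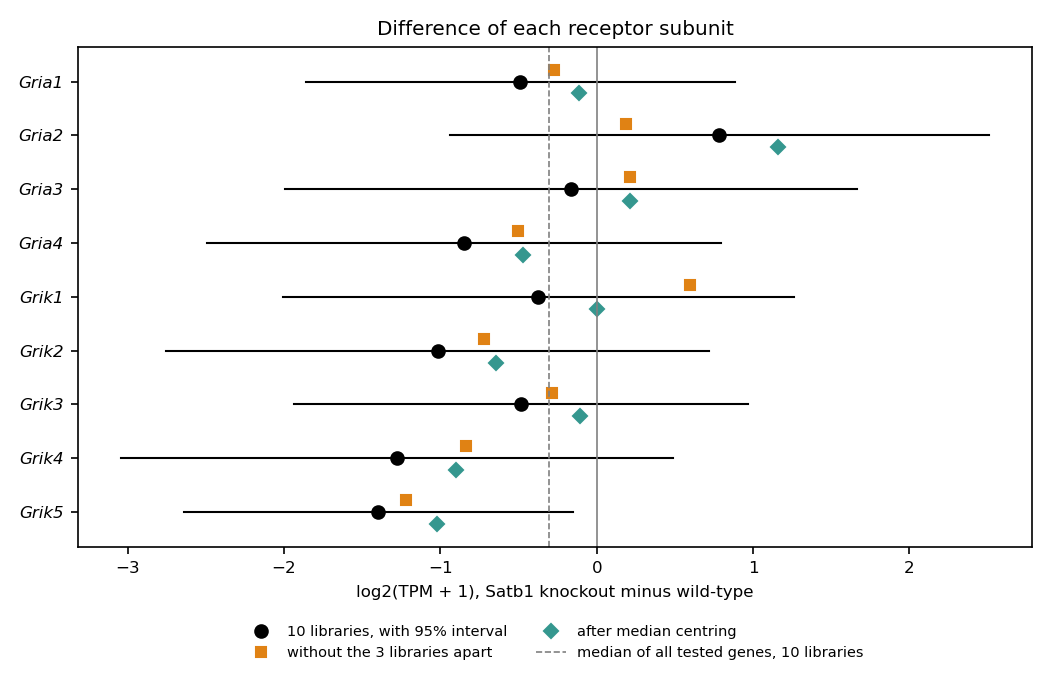
Difference of each subunit on the log2(TPM + 1) scale, Satb1 knockout minus wild-type, with its 95% interval (black), the value without knockout 4, knockout 5 and wild-type 5 (orange squares) and after median centring (green diamonds). The Grik5 interval, -2.64 to -0.15, is the 1 of 9 that leaves out 0, and the dashed line marks the median of all tested genes at -0.31.

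Of the 9 subunits 8 had a lower mean log2 level in knockout, as did 67.4% of the tested genes, with Gria2 the exception. Their median difference was -0.49, against -0.31 for all 11744 genes. Median centring moved the all-gene median to 0.07, and then 6 of 9 subunits were lower with a median of -0.11. Gria2, Gria3 and Grik1 were then at 1.16, 0.21 and 0.0018. The adjusted limma p was 0.992 for each of the 9, and the median SE of 0.79 was near the 0.78 of all tested genes. With errors of this size the 95% intervals of 7 of the 9 subunits, all but Gria2 and Grik5, held both 0 and a log2 difference of -1.

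The AMPA and the kainate family differed in how their sums lay across the genotypes, which is given as a description without a test. Summed AMPA levels were 380 (379.7), 291, 151, 64.9 and 505 TPM in knockout 1 to 5, against 456, 330 (329.9), 319, 129 and 46.0 TPM in wild-type 1 to 5. Summed kainate levels were 111, 96.1, 85.9, 121 and 43.9 TPM in knockout 1 to 5, against 215, 164, 117, 267 and 335 TPM in wild-type 1 to 5. The AMPA sums of the genotypes overlapped over most of their range, while 4 of 5 knockout kainate sums were below every wild-type sum. At least 4 of 5 knockout libraries were below every wild-type library for 2.49% of single tested genes, Grik5 among them. Grik5 made up 42.4% to 79.3% of the kainate sum in knockout and 40.9% to 84.7% in wild-type. Without it the kainate sums were 9.08 to 64.1 TPM in knockout and 51.2 to 73.7 TPM in wild-type.

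Within the AMPA family, Gria2 held 54.6%, 30.6%, 37.3%, 38.4% and 93.7% of the summed TPM in knockout 1 to 5, against 35.4%, 27.3%, 48.3%, 21.6% and 26.7% in wild-type 1 to 5. The mean share was 50.9% ± 25.5 in knockout and 31.9% ± 10.4 in wild-type (SD, n = 5 each), and the ranges overlapped. Without the 3 libraries apart the Gria2 shares were 40.8% ± 12.4 in knockout (n = 3) and 33.1% ± 11.6 in wild-type (n = 4). Gria4 held 26.1% ± 17.0 in knockout and 38.7% ± 6.38 in wild-type, and it was the leading AMPA subunit in 1 knockout and 4 wild-type libraries. Gria1 held 13.7% ± 11.5 in knockout and 17.4% ± 10.4 in wild-type, and Gria3 9.30% ± 4.53 in knockout and 12.1% ± 7.37 in wild-type. Knockout 5 was alone in having nearly all its AMPA transcripts from 1 gene, with Gria1, Gria3 and Gria4 at 1.73%, 2.20% and 2.41% of the sum.

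**Figure D3:**
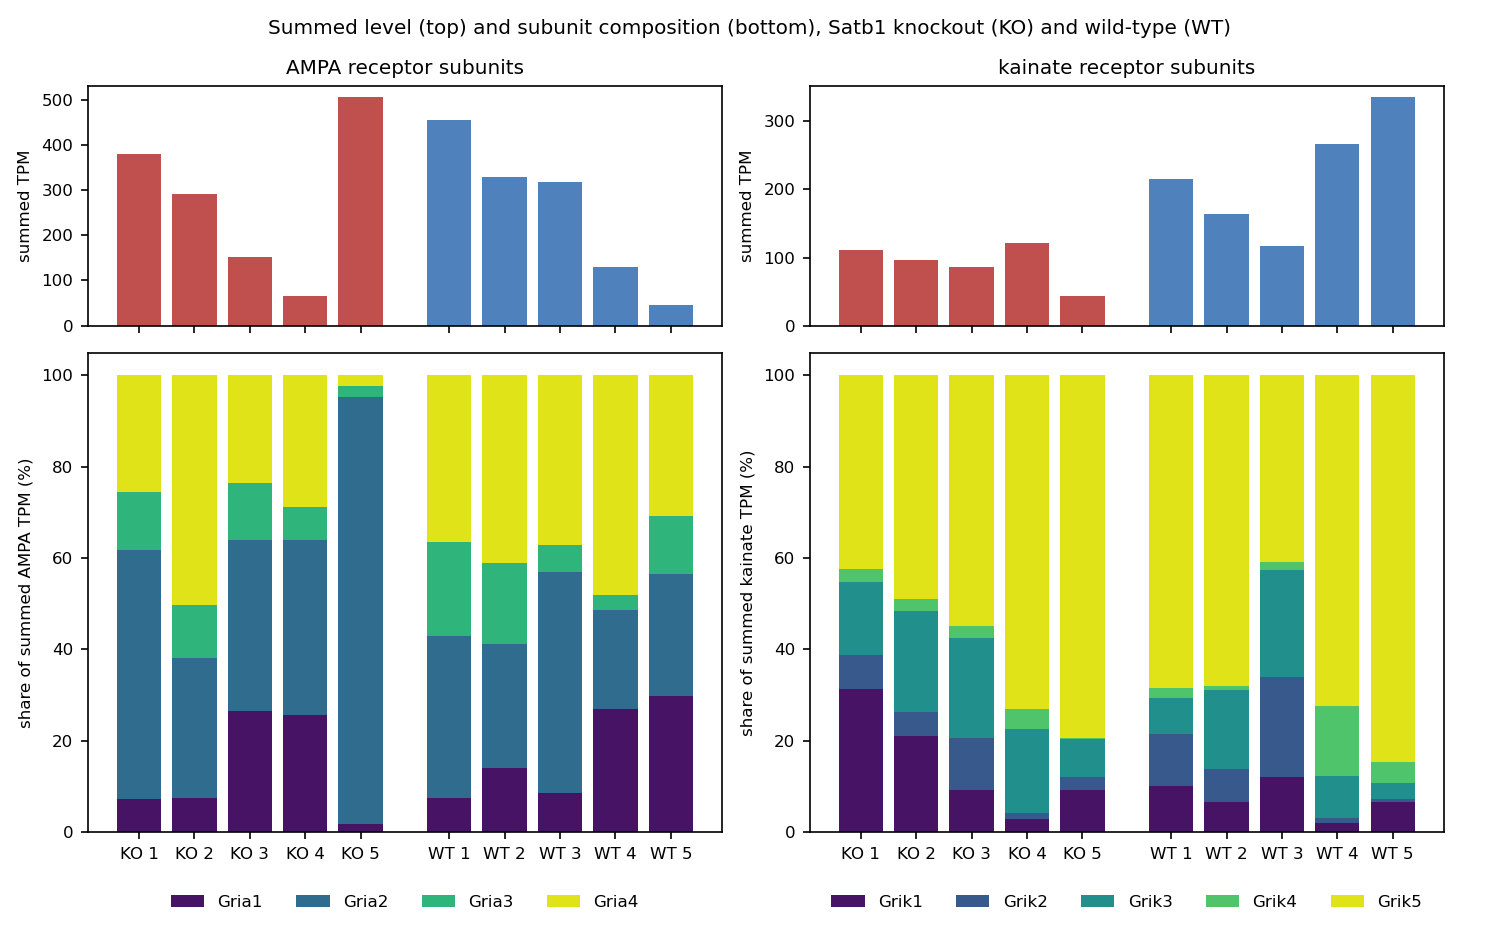
Summed TPM of the AMPA (left) and kainate (right) subunits in each library above, and the percent of that sum held by each subunit below, with knockout libraries left of wild-type libraries. Gria2 reaches 93.7% in knockout 5 against 21.6% to 54.6% in the other 9 libraries, and Grik5 leads the kainate sum in all 10.

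Among the kainate subunits, Grik3 held 17.4% ± 5.65 of the sum in knockout and 12.2% ± 7.98 in wild-type, and Grik1 14.7% ± 11.4 in knockout and 7.41% ± 3.84 in wild-type (SD, n = 5 each). Grik2 held 5.61% ± 3.94 in knockout and 8.51% ± 8.80 in wild-type, and Grik4 2.52% ± 1.47 in knockout and 4.91% ± 5.99 in wild-type. Single wild-type libraries decide both orders: the mean wild-type Grik2 share was 5.11% without wild-type 3, and the mean wild-type Grik4 share was 2.31% without wild-type 4. The summed level of Grik1, Grik2 and Grik3, the subunits that Grik4 and Grik5 need as partners, was 61.0, 46.6, 36.5, 27.3 and 8.96 TPM in knockout 1 to 5, against 63.1, 50.9, 67.3, 32.7 and 35.9 TPM in wild-type 1 to 5. Grik5 alone exceeded that sum in 8 of the 10 libraries, the exceptions being knockout 1 and wild-type 3.

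The 3 libraries that stood apart had low levels of several subunits in both genotypes. Gria1, Gria4 and Grik2 were lower in each of these 3 libraries than in any of the other 7, as were 21.2% of the tested genes. Gria1 was at 8.72 to 16.6 TPM there and 21.7 to 46.0 TPM elsewhere, Gria4 at 12.2 to 18.6 and 35.6 to 166 TPM, and Grik2 at 1.24 to 2.11 and 3.24 to 25.9 TPM. The mean log2 level was lower in the 3 for 8 of 9 subunits, as it was for 70.8% of tested genes, with Grik5 the exception at 0.31 and Grik4 at -0.03. The ganglion cell genes Slc17a6, which encodes the vesicular glutamate transporter, and Pou4f1, a transcription factor gene, moved with the libraries in the same way, at 55.2 to 96.7 TPM in the 3 against 176 to 726 TPM, and at 37.4 to 72.7 against 194 to 371 TPM. Thy1, a surface marker of ganglion cells, was at 1397 to 2105 TPM in the 3 and 705 to 1329 TPM in the 7. These 3 libraries were singled out from the data, so no test was made of them.

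Genes whose levels ran most like those of the leading subunits were found by the root mean square difference of mean-centred log2(TPM + 1) values over the 10 libraries, among 6535 genes. For Gria2 they were Dennd5b (0.44), Ankrd12 (0.47), Rit2 (0.54), Dock3 (0.57) and Cxxc4 (0.59), where the median gene was at 1.76. All 5 had their highest level in knockout 5, as Gria2 did, with Rit2, a neuronal small GTPase gene, at 1114 TPM there. For Grik5 they were Akt1 (0.34), which encodes a survival kinase, Pitpnm1 (0.47), Trappc9 (0.52), Pomt2 (0.54) and Ddx23 (0.55), where the median gene was at 1.46. Akt1 averaged 48.3 ± 23.7 TPM in knockout and 109 ± 42.9 TPM in wild-type, and Pitpnm1 48.9 ± 32.7 TPM in knockout and 94.3 ± 51.8 TPM in wild-type (SD, n = 5 each). These genes were picked for their likeness to the subunits, so their levels are a description.

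**Figure D4:**
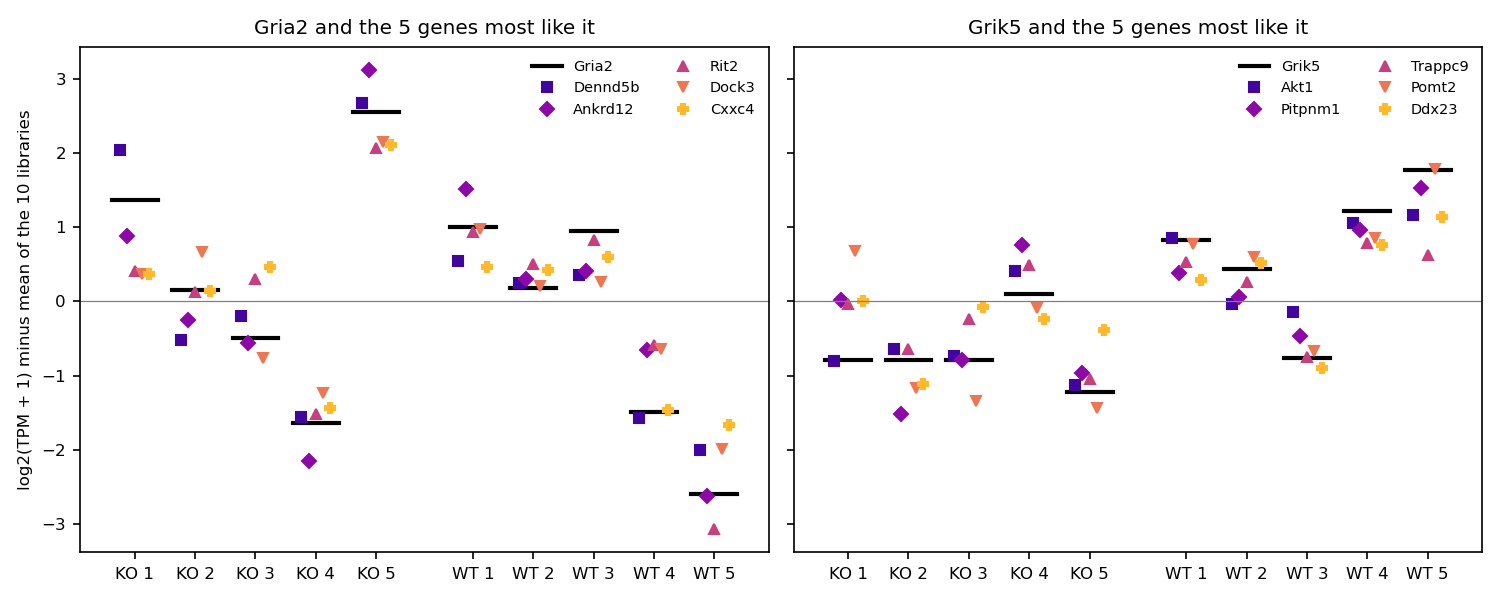
Values on the log2(TPM + 1) scale minus each gene's mean over the 10 libraries, for Gria2 (left, black bars) and Grik5 (right, black bars) and the 5 genes most like each (symbols), with knockout libraries left of wild-type libraries. Gria2 and its 5 genes all peak in knockout 5, and Grik5 and its nearest gene Akt1 differ by a root mean square of 0.34.

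The proteins that assemble, modulate and anchor these receptors were covered by 5 lists with 49 genes, of which 41 were tested. None was called in either direction (limma, Benjamini-Hochberg adjusted p at least 0.992 for each), and 4 were at an unadjusted p under 0.05. Of the 41 genes 28 had a lower and 13 a higher mean log2 level in knockout, with a median of -0.33 against -0.31 for all tested genes. All 4 with a small p were among the 20 tested AMPA auxiliary and assembly genes and were lower in knockout (background 2.57%). They are Olfm3, Cacng7, Abhd6 and Prrt1. All 4 were picked by their small p, so their values are a description.

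Olfm3 encodes a noelin, a secreted protein that binds AMPA receptors. Its level was 5.43, 8.35, 12.2, 1.31 and 0.332 TPM in knockout 1 to 5, against 28.4, 70.4, 31.9, 18.6 and 10.4 TPM in wild-type 1 to 5. Knockout 3 was the 1 knockout library above the lowest wild-type library, and the difference was -2.53 (SE 0.82). Cacng7 encodes a transmembrane AMPA receptor regulatory protein and was at 109, 20.03, 74.4, 40.2 and 4.09 TPM in knockout 1 to 5, against 418, 255, 123, 85.9 and 62.8 TPM in wild-type 1 to 5. Knockout 1 and 3 lay within the wild-type range, and the difference was -2.20 (SE 0.79). Abhd6, a hydrolase that limits AMPA receptor delivery to the surface, was at 1.29 to 20.8 TPM in knockout and 11.3 to 61.2 TPM in wild-type (-2.12, SE 0.80). Prrt1, an AMPA receptor partner, was listed at 0 in 3 knockout libraries and reached 5.32 TPM in knockout, against 1.22 to 23.4 TPM in wild-type (-1.76, SE 0.84).

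Cacng7 is also among the 4 most abundant genes of this list, and the other 3 had differences between -0.33 and 0.05. Olfm1, another noelin gene, averaged 1204 ± 354 TPM in knockout and 1127 ± 191 TPM in wild-type (0.05, SE 0.48), and Cnih2, a cornichon gene, 241 ± 255 TPM in knockout and 201 ± 126 TPM in wild-type (-0.11, SE 0.65). Cacng5, from the same family as Cacng7, averaged 109 ± 65.8 TPM in knockout and 125 ± 52.1 TPM in wild-type (-0.33, SE 0.63). Of the kainate receptor auxiliary genes 3 of 4 were tested and all 3 had a lower mean, with Neto2 at 31.9 ± 34.1 TPM in knockout and 47.8 ± 31.1 TPM in wild-type (-0.85, SE 0.90) and Neto1 at 6.80 ± 4.31 TPM in knockout and 14.7 ± 18.8 TPM in wild-type (-0.55, SE 0.87). C1ql3, a secreted synaptic organizer, was at 0 to 8.53 TPM in knockout and 0 to 8.49 TPM in wild-type.

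Scaffold, trafficking and clustering genes lay on both sides of 0, with 9 of 15 lower and a median of -0.09. Dlg2 (PSD-93), a scaffold of the postsynaptic density, was at 92.1 to 1808 TPM in knockout and 99.8 to 639.6 TPM in wild-type (0.36, SE 0.72). Grip1, which anchors Gria2 and Gria3 proteins, averaged 110.3 ± 56.8 TPM in knockout and 192 ± 75.8 TPM in wild-type (-0.87, SE 0.57). The fusion ATPase gene Nsf averaged 109 ± 49.8 TPM in knockout and 238 ± 139 TPM in wild-type (-0.95, SE 0.61), and Pick1, which guides AMPA receptor internalization, 26.0 ± 17.5 TPM in knockout and 52.6 ± 31.3 TPM in wild-type (-1.19, SE 0.75). Nptxr, a pentraxin receptor that clusters AMPA receptors, averaged 154 ± 82.6 TPM in knockout and 147 ± 40.6 TPM in wild-type (-0.09, SE 0.56). Adarb1 (ADAR2), the enzyme that edits the Q/R codon of Gria2, averaged 57.2 ± 28.7 TPM in knockout and 96.3 ± 52.3 TPM in wild-type (-0.73, SE 0.61). Adar averaged 24.7 ± 12.4 TPM in knockout and 27.1 ± 12.4 TPM in wild-type (-0.14, SE 0.65), and the delta receptor gene Grid1 3.74 ± 2.07 TPM in knockout and 6.93 ± 6.18 TPM in wild-type (-0.50, SE 0.74).

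**Figure D5:**
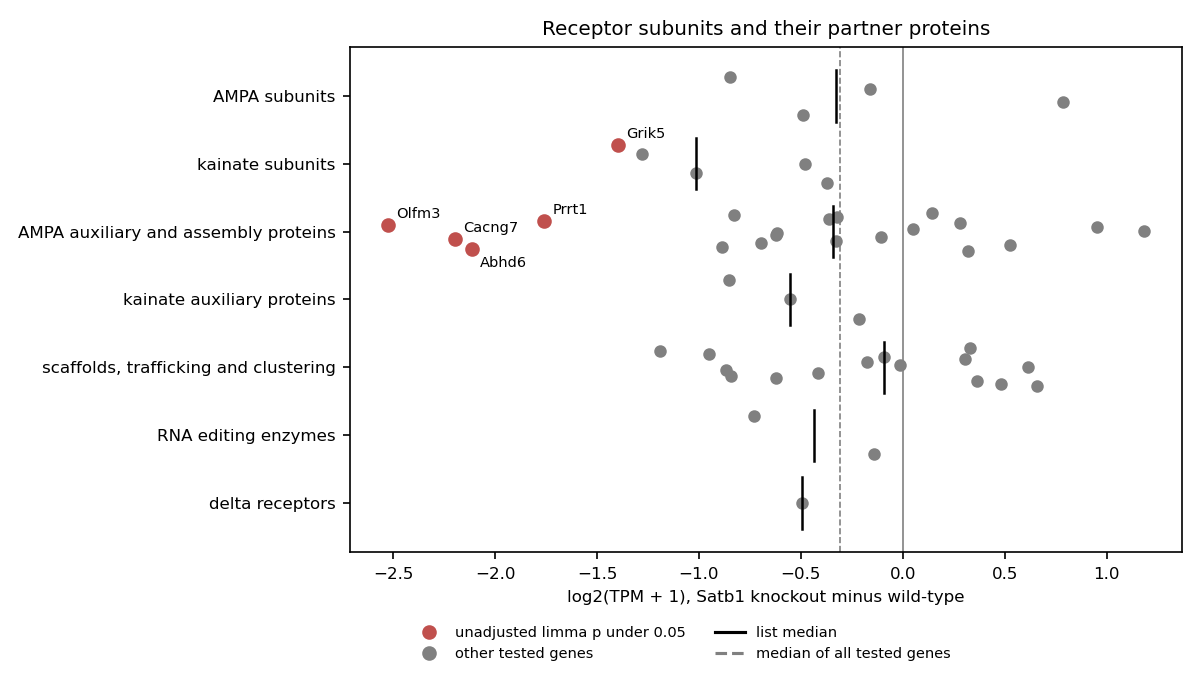
Difference of each tested gene on the log2(TPM + 1) scale, Satb1 knockout minus wild-type, in the AMPA and kainate subunit lists and 5 lists of partner proteins, with a black bar at each list's median and a dashed line at the all-gene median of -0.31. The 5 genes in red (Grik5, Olfm3, Cacng7, Abhd6 and Prrt1) had an unadjusted limma p under 0.05, and none passed adjustment over all genes.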

How the data were processed

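Single-end RNA-seq was made from sorted Hb9-GFP cells, and the cDNA was amplified (labels' protocols). What amplification added to the spread was not measured. The authors deposited log10(TPM + 1) values, per the file headers and the values, which sum to 1000000 TPM per library once back-transformed. The submitters' processing notes name TopHat2 2.0.10, Cufflinks and mm10. How reads were counted, on which annotation, and whether by strand is not given in the sources used here. Entries that were a number in place of a symbol (26) were left out and 240 repeated symbols were summed in TPM. The filter kept genes reaching 1 TPM in 5 or more libraries, which were fitted with limma 3.58.1 in R 4.3.3 on log2(TPM + 1), a pseudocount of 1, with genotype as the only term and a mean-variance trend. P-values were Benjamini-Hochberg adjusted over all 11744 genes at a threshold of 0.05. The fit was tested on simulated data. Single genes had a two-sided exact permutation test, unadjusted. Named partner genes are the 4 with the highest mean TPM and the 2 with the smallest p of each list. Abhd6 and Prrt1 were added to these because their unadjusted limma p was under 0.05. Genes most like a subunit had a symbol other than a predicted gene and a median of at least 10 TPM. In 3 list genes an older symbol was matched through RefSeq. Exons of a predicted gene overlap those of Gria2, Gria3, Gria4 and Grik4 in GENCODE M21, which may share reads. Members and lists were chosen with earlier results of these data known.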

Additional observations from a re-analysis of the deposited data

Results flagged for a closer look

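A library lay far from the other 4 of its genotype for 2 of the 18 sets of 5 TPM values (9 subunits, each genotype), by Dixon's test at the 95% critical value of 0.71; chance flags about 1 set in 20. Grik3 in knockout 5 was at 3.68 TPM, with the gap to the next library taking 0.772 of the group's range. Grik5 in knockout 4 was at 88.2 TPM, with a gap of 0.769 of the range. Both are among the 3 libraries that stood apart on the first principal component.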

How the results depend on the processing

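Each subunit difference was recomputed in 23 alternatives (22 for Grik4, which no longer passed a filter of 5 TPM in 5 libraries). None brought a subunit or a partner gene to an adjusted p under 0.05, the lowest for a subunit being 0.651, and Gria1, Gria4, Grik2, Grik3, Grik4 and Grik5 kept their sign in all, though not their size. With 1 library left out, Gria1 ran from -0.75 (without wild-type 5) to -0.20 (without knockout 5), Gria4 from -1.43 (without wild-type 5) to -0.43 (without knockout 5), Grik2 from -1.45 to -0.67 (without wild-type 3), Grik3 from -0.67 to -0.05 (without knockout 5) and Grik4 from -1.70 to -0.67 (without wild-type 4). Grik4 was at -0.48 with library weights, and Gria1 and Grik3 were at -0.11 with median centring. The Grik5 difference ran from -1.77 to -1.02. Its unadjusted limma p ran from 0.0073, with the 3 libraries apart as a term, to 0.123 with median centring, so it was not always under 0.05. Gria2 was at -0.024 with library weights. Gria3 was at 0.21 with median centring, 0.10 with quantile normalization, 0.24 with the 3 libraries apart as a term, 0.21 without them, and -0.65 to 0.38 with 1 library left out. Grik1 was at 0.0018 with median centring and 0.60 without the 3 libraries. The cause of these turns was not tested. The count of all genes past the threshold was 1 with a filter of 5 TPM, without the mean-variance trend and with robust variances (Rpp25 each time), 3 with library weights (Cartpt, Rpp25, Scarna3b), and 0 to 1 with 1 library left out, these genes being named after their values were seen. Unadjusted p-values under 0.05 numbered 834 with library weights and 286 to 845 with 1 library left out. Libraries of the 2 genotypes share replicate numbers only: their deviations correlated over 0.1 for 3 of 5 numbers, and 1 of 5 numbers was the best match both ways. With the replicate block the count was 830, and the adjusted p of Grik5 was 0.692. With 1 library left out, the mean wild-type share of Grik2 ran from 5.11% to 10.5% and that of Grik4 from 2.31% to 5.93%. TPM keeps no depth, so what depth limits is unknown.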
